A study of Mus musculus with 6 samples.

Results

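The Hedgehog receptors and Gli factors described here are 7 genes: Gli1, Gli2, Gli3, Ptch1, Smo, Sufu and Hhip. They are 7 of the 48440 genes of the deposited count table, were found there by gene name, and all 7 passed the filter on low counts that left 14664 genes for testing. They were picked because Gli1 was lower in every Tet1 knockout clone, so their knockout and non-targeted values are given as a description with no test. RNA-seq was done on polyadenylated RNA of 6 mouse clones of induced pluripotent stem cells (iPSCs), which the series title says were made from embryonic fibroblasts, 3 with a Cas9 knockout of Tet1 (clones 14, 30 and 33, replicates 1 to 3) and 3 non-targeted (clones 49, 51 and 52, replicates 1 to 3). Tet1 encodes a dioxygenase that oxidises 5-methylcytosine in DNA. All 6 clones derive from the same male line, iPSC34.3, and carry the Pou5f1-EGFP transgene. Their strain label joins B6- Tet1tm1Kohx with the transgenic strain B6;CBA-Tg(Pou5f1-EGFP)2Mnn/J, and their genotype label is wt/wt;GFP/wt, to which the knockout clones add Tet1 Cas9 mut/mut. Per the labels' protocols, the line was transfected at passage 14 with Cas9 ribonucleoprotein, a guide RNA to Tet1 and a donor oligonucleotide, and then kept for 12 h with what the labels call an HRD enhancer. The picked colonies were grown for 4 passages in KSR medium, expanded on mouse embryonic fibroblast (MEF) feeders and taken off them for RNA. This protocol text is the same for both groups. Each library is a clone of that line, so the spread between replicates is the spread between clones.

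Hedgehog ligands bind Ptch1, which in their absence holds Smo, a membrane protein with a heptahelical fold, inactive at the primary cilium. Sufu binds the Gli transcription factors and restrains them, and in unstimulated cells Gli3, and to a lesser extent Gli2, is cut to a repressor. Ligand releases Smo, Gli2 turns into an activator, and Gli1, Ptch1 and Hhip are transcribed. Gli1 lacks the repressor part of its relatives and is widely used as a readout of the pathway, while Ptch1 and Hhip, a decoy that binds ligand, feed back on it.

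The promoters of the 3 members that were higher in every knockout clone (Smo, Sufu and Gli3), and of Gli2, which was at a like level in both groups, are shown because 5-methylcytosine in CG dinucleotides is what Tet1 oxidises. No methylation was measured here. The sequences are the 250 bases before the start site in RefSeq (GRCm38.p6), written 5′ to 3′ on the strand of the gene, with each CG in capitals. The windows are, for Smo, chr6:29735247-29735496 on the plus strand, for Sufu, chr19:46396646-46396895 on the plus strand, for Gli3, chr13:15463473-15463722 on the plus strand, and for Gli2, chr1:119053620-119053869 on the minus strand. The Gli3 window lies inside the GENCODE gene body, since RefSeq starts that transcript further downstream, and none of the 4 windows overlaps an annotated exon of that strand in GENCODE M21.
Smo: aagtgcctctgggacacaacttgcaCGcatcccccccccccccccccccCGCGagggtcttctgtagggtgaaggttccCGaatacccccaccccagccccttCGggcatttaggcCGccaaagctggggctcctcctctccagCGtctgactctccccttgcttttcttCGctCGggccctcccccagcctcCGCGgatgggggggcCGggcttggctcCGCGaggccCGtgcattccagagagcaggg
Sufu: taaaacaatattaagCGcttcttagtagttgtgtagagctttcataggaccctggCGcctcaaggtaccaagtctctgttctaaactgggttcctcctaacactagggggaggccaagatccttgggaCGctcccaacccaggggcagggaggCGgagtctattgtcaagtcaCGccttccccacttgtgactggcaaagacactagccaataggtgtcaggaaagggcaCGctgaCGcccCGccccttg
Gli3: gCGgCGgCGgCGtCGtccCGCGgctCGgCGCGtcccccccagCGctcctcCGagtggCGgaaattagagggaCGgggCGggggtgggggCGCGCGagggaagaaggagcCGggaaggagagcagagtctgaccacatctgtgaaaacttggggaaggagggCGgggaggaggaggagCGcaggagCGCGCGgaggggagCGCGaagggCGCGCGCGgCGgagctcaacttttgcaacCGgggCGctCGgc
Gli2: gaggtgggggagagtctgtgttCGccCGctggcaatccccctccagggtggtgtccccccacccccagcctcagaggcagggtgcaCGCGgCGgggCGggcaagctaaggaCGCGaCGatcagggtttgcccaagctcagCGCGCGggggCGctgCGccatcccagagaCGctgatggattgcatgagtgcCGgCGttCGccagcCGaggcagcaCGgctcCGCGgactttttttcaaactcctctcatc

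Of the 7 genes, 6 have such a window in the RefSeq table, and Gli1 is not among them. Smo has 15 CGs, Sufu 8, Gli3 34 and Gli2 22, and the windows not printed have 41 in Ptch1 and 28 in Hhip. All 6 lie above the median of the 32851 promoter windows of the same length, which is 6 CGs. Sufu was nearest to it, with 57.0% of windows below it, and Ptch1 was highest, with 98.9% of windows below it. The Ptch1 window (chr13:63565736-63565985, minus strand) lies inside the GENCODE gene body, which on that strand starts upstream at 63573598. The Gli binding motif GACCACCCA, searched on both strands, is in none of the 6 windows and in 0.225% of all windows. Its core ACCACCC, which lies within the longer motif, is in the Gli2 window, where the printed strand reads its reverse complement from 205 bases before the start site, and in 3.92% of all windows. These matches describe letters in the windows only.

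Library totals ran from 11937909 to 16189554 counts. Tet1 itself, the targeted gene, had 365, 231 and 288 CPM (counts scaled to a common library size with TMM factors) in knockout replicates 1 to 3 and 1158, 966 and 1034 CPM in non-targeted lines. The pluripotency factor Pou5f1 was read at 675 to 692 CPM in knockout clones and 744 to 849 CPM in non-targeted lines, and Nanog at 112 to 471 and 462 to 564 CPM. Sox2 is listed at 0 in all 6 libraries, and lies wholly inside another gene of its strand, whose reads the counting could not assign. Over all tested genes, edgeR's quasi-likelihood test with Benjamini-Hochberg adjustment, the main test, called 0 of 14664 genes at an adjusted p of 0.05 (0.0%). An unadjusted p under 0.05 was reached by 3640 genes (24.8%), 14.0% higher and 10.8% lower, while the adjusted p of limma voom called 1 (0.00682%). DESeq2 called 1232 of the 14235 genes to which it gave an adjusted p (8.65%), of which 783 (5.5%) rose and 449 (3.15%) fell. Tet1 had a log2 fold change, knockout minus non-targeted, of -1.84 ± 0.16 (SE). It was called by DESeq2 (adjusted p = 9.43e-20) but not by edgeR (adjusted p = 0.0703). Without knockout replicate 1, edgeR called 4404 genes (29.1%) and DESeq2 4106 (27.4%). DESeq2 called 2.11% and 1.96% of genes without knockout replicates 2 and 3, and 1.44%, 5.45% and 0.977% without non-targeted replicates 1, 2 and 3. Calls of both tools are given below.

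Gli1, the pathway readout, was lower in the knockout, at 16.8, 14.5 and 17.8 CPM in knockout replicates 1 to 3 against 35.35, 34.6 and 40.7 CPM in non-targeted replicates 1 to 3. The highest knockout clone lay well below the lowest non-targeted clone, and knockout replicate 1 was as low as the other knockout clones. The means were 16.3 ± 1.69 CPM in knockout clones and 36.9 ± 3.36 CPM in non-targeted lines (SD, n = 3). The log2 fold change, knockout minus non-targeted, was -1.17 ± 0.13 (SE), a level 2.25-fold lower. The raw counts behind it were 175 to 247 reads in the knockout and 438 to 586 reads in the non-targeted libraries. In such bulk samples, fewer cells that express a gene and less RNA per cell cannot be told apart. Gli1 lies on chromosome 10 (127329889 to 127341589, minus strand, GRCm38) and shares no exonic base with another gene of its strand. Arhgap9 overlaps it on the opposite strand, from which the stranded counting keeps its reads apart.

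Gli2, the main activator among the Gli factors, did not separate the groups. It had 58.1, 75.04 and 53.1 CPM in knockout replicates 1 to 3, against 64.0, 58.8 and 73.25 CPM in the non-targeted replicates, with a log2 fold change of -0.07 ± 0.15. Gli3, the main repressor, was higher in every knockout clone. Its values were 39.7, 62.55 and 74.99 CPM in knockout clones and 27.8, 39.55 and 27.5 CPM in non-targeted lines (log2 fold change 0.90 ± 0.25). Knockout replicate 1 lay barely above non-targeted replicate 2, so the groups are separated by a narrow gap, and the knockout clones spread by 30.3% of their mean (coefficient of variation), against 10.3% for Gli1.

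**Figure D1:**
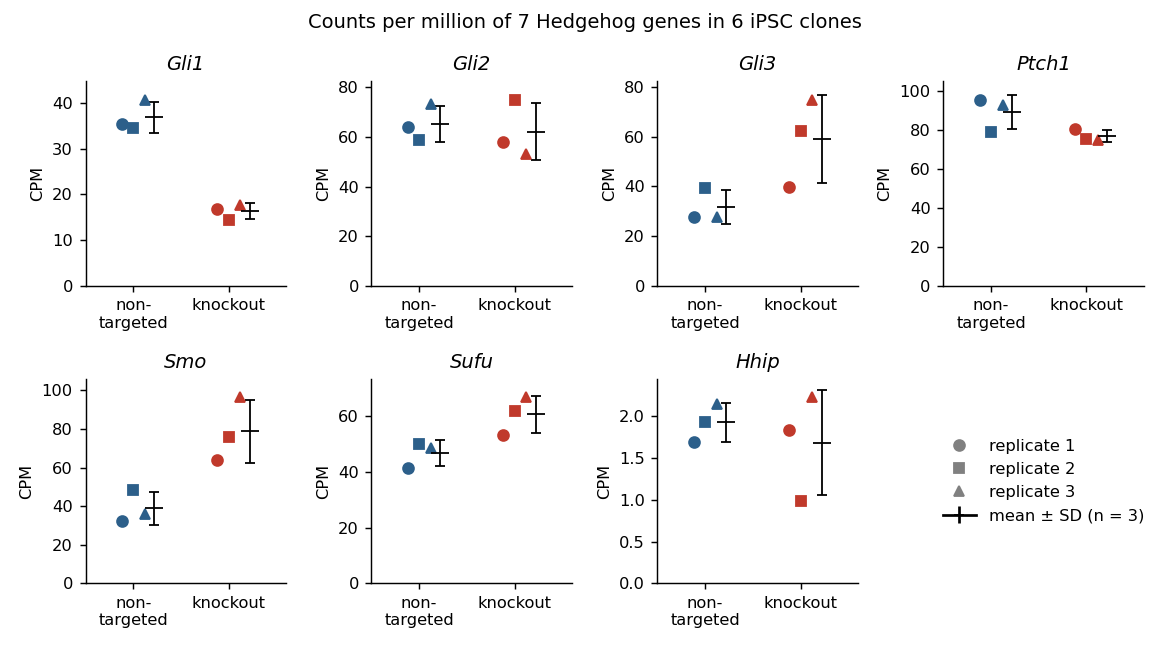
Each panel plots the level of a gene in CPM (y axis, from 0) in the 3 non-targeted and 3 knockout clones; symbols mark the replicate number and the bars show mean ± SD. Gli1 sits at 14.5 to 17.8 CPM in knockout clones and 34.6 to 40.7 CPM in non-targeted lines, while Gli3, Smo and Sufu are higher in every knockout clone and Gli2, Ptch1 and Hhip overlap.

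Levels of different genes are compared here only per kb of exon (CPM divided by the length of the merged exons in GENCODE M21). On that scale Gli1 and Gli3 changed order between the groups, an order that depends on the length used. Per kb of the whole gene body, over which the reads were counted, mean Gli1 stayed above mean Gli3 in both groups (3.15 and 0.119 CPM per kb in non-targeted lines, 1.40 and 0.2215 CPM per kb in knockout clones). Gli1 made up 36.7%, 35.3% and 37.6% of the summed Gli level in non-targeted replicates 1 to 3 and 21.1%, 14.25% and 18.6% in the knockout replicates. Gli3 made up 15.05%, 21.04% and 13.2% in the non-targeted and 25.9%, 32.1% and 40.9% in the knockout clones. Every non-targeted clone had more Gli1 than Gli3 per kb of exon, and every knockout clone had less. The per-length ratio of Gli1 to Gli3 was 1.68 to 2.84 in the non-targeted and 0.444 to 0.812 in the knockout clones. Gli2 held 43.7% to 49.2% in the non-targeted and 40.5% to 53.7% in the knockout clones, and the sum of the 3 genes was 19.3 to 21.7 CPM per kb and 16.0 to 20.35 CPM per kb.

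**Figure D2:**
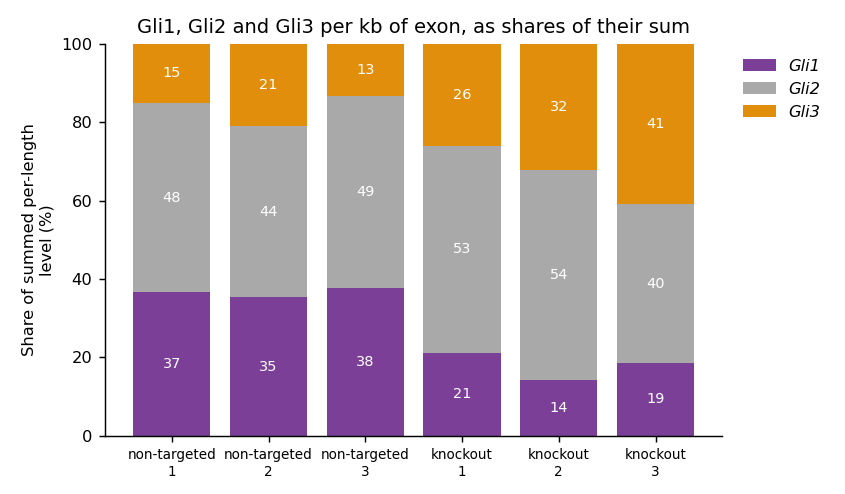
Stacked bars show, for each clone (x axis), the share in percent (y axis) of Gli1, Gli2 and Gli3 in their summed level per kb of exon. The Gli1 share is 35.3% to 37.6% in the non-targeted and 14.25% to 21.1% in the knockout clones, and the Gli3 share is higher in every knockout clone.

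The receptor and the decoy overlapped between the groups. Ptch1, the ligand receptor and itself a target of the Gli factors, had 80.4, 75.2 and 74.9 CPM in knockout replicates 1 to 3, against 95.5, 79.0 and 92.85 CPM in the non-targeted replicates. Non-targeted replicate 2 lay just under knockout replicate 1, and the log2 fold change was -0.21 ± 0.10. Hhip was near the floor of detection, with 12 to 31 reads in each library. It stood at 1.84, 0.993 and 2.23 CPM in knockout clones and 1.695, 1.93 and 2.155 CPM in non-targeted lines (-0.19 ± 0.34), a range that does not separate the groups at this depth.

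The signal transducer Smo was higher in every knockout clone, at 64.1, 75.7 and 96.4 CPM in knockout replicates 1 to 3 and 32.3, 48.35 and 36.1 CPM in the non-targeted replicates. All knockout values lay above all non-targeted values, and the log2 fold change was 1.02 ± 0.20, a level 2.02-fold higher. Sufu, the Gli inhibitor, was higher by less, with 53.3, 61.7 and 66.7 CPM against 41.4, 49.9 and 48.7 CPM (0.38 ± 0.12). Here too the groups did not overlap, and the gap between knockout replicate 1 and non-targeted replicate 2 was small. In all, 1 of the 7 members was lower and 3 were higher in every knockout clone, beside 14.7% and 14.8% of all tested genes (29.5% in either direction). Since this contrast was used to pick them, nothing is read from these counts.

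Per kb of exon, the order of the 7 genes differed between the groups. In the non-targeted clones it was Gli2 (9.515 ± 1.06 CPM per kb, SD, n = 3), Gli1 (7.38 ± 0.672), Smo (6.92 ± 1.495), Ptch1 (6.28 ± 0.625), Sufu (6.07 ± 0.599), Gli3 (3.30 ± 0.715) and Hhip (0.212 ± 0.0253). Gli1, Smo, Ptch1 and Sufu overlapped with their neighbours in that order, while Gli2, Gli3 and Hhip stood apart from theirs. In the knockout clones the order was Smo (14.0 ± 2.91), Gli2 (9.04 ± 1.67), Sufu (7.88 ± 0.883), Gli3 (6.16 ± 1.87), Ptch1 (5.42 ± 0.218), Gli1 (3.27 ± 0.337) and Hhip (0.186 ± 0.0696). Gli2, Sufu, Gli3 and Ptch1 overlapped with their neighbours, and Smo, Gli1 and Hhip did not. Gli1 thus stood at rank 2 of 7 in the non-targeted and rank 6 of 7 in the knockout clones. The order depends on the length used, because the authors counted introns too: per kb of the whole gene body, Gli1 (11.7 kb long) ranked 1 and 2, Gli2 (219.5 kb) ranked 5 and Gli3 (266.8 kb) ranked 6 in both groups, so the exchange of Gli1 and Gli3 is seen per kb of exon, the length behind the shares above, and not on that length.

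Markers of other cell types are given beside these values, and the sums of fibroblast and mesendoderm markers were higher in every knockout clone. The 25 fibroblast (feeder) markers summed to 593, 761 and 1789 CPM in knockout replicates 1 to 3 and 300.0, 504 and 455 CPM in the non-targeted replicates. Of 23 tested, 19 were higher in every knockout clone, and 12 of the list rose in DESeq2 and 0 in edgeR (21 at an unadjusted p under 0.05, all higher). Shares over all tested genes, for this list and those below, were 14.8% higher and 14.7% lower in every knockout clone. In DESeq2 5.5% of all genes rose and 3.15% fell, and 14.0% were higher at that unadjusted p in edgeR. No fibroblast marker was at 0 in all 6 libraries. Collagen genes Col1a1 (39.4, 37.1 and 122.6 against 18.8 to 30.8 CPM) and Col3a1 (37.7, 42.8 and 119 against 15.9 to 28.3 CPM), the surface marker Thy1 (5.90, 7.28 and 23.15 against 3.55 to 5.86 CPM) and the matrix protein Postn (2.15, 2.565 and 23.4 against 0.417 to 1.31 CPM) had their highest value in knockout replicate 3. Smo, Gli3, Sufu and Boc, described next, were also higher in the knockout and Gli1 was lower. The 11 mesendoderm markers summed to 23.5, 92.0 and 67.8 CPM in knockout clones and 13.6 to 21.3 CPM in non-targeted lines (4 of 7 tested higher in every knockout clone; 2 rose in DESeq2). The 11 neural markers summed to 118, 293 and 376 CPM and 75.1 to 136 CPM, so the groups overlapped (1 of 4 tested higher and 1 lower in every knockout clone). The sums were mostly Nes, with Sox1 and Tubb3 listed at 0 and lying inside other genes. Msi1 rose (0.77 ± 0.16, DESeq2 adjusted p = 0.00267, edgeR adjusted p = 0.106). Pax6 fell (-1.33 ± 0.28, DESeq2 adjusted p = 0.00887, edgeR adjusted p = 0.108), and both are named here after their values were seen. The 10 tested pluripotent cell markers all had a negative log2 fold change (median -0.58, from -0.79 to -0.004), with 0 called by either tool. Only 2 were lower in every knockout clone. Summed, this list of 11 reached 4692 CPM for knockout replicate 1, inside the span of the non-targeted lines (4299 to 4924 CPM). Knockout replicates 2 and 3 lay below that span, at 3299 and 2564 CPM. The part of the cells marked by these lists in the Hedgehog values was not tested.

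The ligands were hardly transcribed in either group. Sonic hedgehog (Shh) had 0 to 3 reads in each library (at most 0.248 CPM), and Indian and desert hedgehog, Ihh and Dhh, reached at most 0.719 and 0.556 CPM, all below the filter. Of 9 genes for ligands and ligand release 5 were tested, and 0 were called by edgeR or DESeq2 (0 at an unadjusted p under 0.05). The secreted ligand-release factors with the smallest p were Scube2, at 1.23, 0.910 and 1.08 CPM in knockout clones and 2.502, 1.497 and 1.53 CPM in non-targeted lines (-0.76 ± 0.33), and Scube3, at 16.3, 34.34 and 29.4 against 15.7, 21.5 and 18.7 CPM (0.52 ± 0.27).

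Among co-receptors and surface regulators, the ligand co-receptors Cdon and Boc rose in DESeq2. Cdon had 34.8, 37.3 and 40.2 CPM in knockout replicates 1 to 3, against 26.9, 27.7 and 25.4 CPM in the non-targeted replicates, a log2 difference of 0.49 ± 0.10 (SE; DESeq2 adjusted p = 0.0122; edgeR adjusted p = 0.108). Boc was low, at 2.61, 3.31 and 3.09 against 1.13, 0.873 and 1.599 CPM (1.32 ± 0.30; DESeq2 adjusted p = 0.0308; edgeR adjusted p = 0.110). The groups did not overlap for either gene. Gas1, another ligand co-receptor of the list, was also higher in every knockout clone, at 6.06, 9.35 and 8.56 against 4.84, 4.93 and 5.35 CPM, but passed neither test (0.66 ± 0.22; DESeq2 adjusted p = 0.0955; edgeR adjusted p = 0.142). Lrp2, a large endocytic receptor that binds Shh and is named here after its values were seen, overlapped between the groups, at 86.6, 204 and 247 against 94.7 to 126.5 CPM (0.64 ± 0.34).

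In all, DESeq2 called 2 of the 8 tested genes of this list and edgeR 0 (5 at an unadjusted p under 0.05, all higher), with a median log2 fold change of 0.49 beside 0.00 over all tested genes. Of all genes, 5.5% rose in DESeq2 and 14.0% were higher at that unadjusted p in edgeR. With single libraries left out of DESeq2, Cdon and Boc kept their calls only without knockout replicate 1, with adjusted p up to 0.172 and 0.215 otherwise. In edgeR without knockout replicate 1, 6 genes of this list passed, beside 29.1% of all genes in that fit.

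Of the 22 genes of signal transduction and Gli processing, 8 were higher and 1 was lower in every knockout clone, beside 14.8% and 14.7% of all tested genes, and log2 fold changes ran from -0.65 (Tulp3, described with its neighbours below) to 0.74. None was called by edgeR or DESeq2, and the median log2 fold change was 0.16. An unadjusted p under 0.05 in edgeR was reached by 4, all of them higher, beside 14.0% of all tested genes in that direction. Grk2, a kinase that phosphorylates Smo, had 91.1, 106 and 112 against 78.4, 81.0 and 85.2 CPM (0.34 ± 0.10), and Numb, which promotes the turnover of Gli1 by the ligase Itch, had 42.55, 40.8 and 45.9 against 33.5, 32.4 and 34.33 CPM (0.37 ± 0.09; DESeq2 adjusted p = 0.0514). Kif7, a ciliary kinesin that scaffolds Gli proteins, had a log2 fold change of 0.24 ± 0.12. Gpr161, a ciliary receptor that promotes the repressor form of Gli3, had 4.29, 6.95 and 10.6 against 3.55 to 5.43 CPM (0.74 ± 0.35) with overlapping groups. Without knockout replicate 1, edgeR and DESeq2 each called 7 genes of this list, beside 29.1% and 27.4% of all genes in those fits.

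Genes known as Hedgehog targets in other tissues did not follow Gli1 as a list. Of the 12 that were tested, 8 had a positive and 4 a negative log2 fold change (median 0.24), and 0 were called by edgeR (4 higher and 2 lower at an unadjusted p under 0.05). DESeq2 called 2, both lower, beside 3.15% of all genes that fell in DESeq2. At that unadjusted p in edgeR, 14.0% of all tested genes were higher and 10.8% lower. Nkx6-2, a homeobox factor of the ventral neural tube, fell in DESeq2 with 2.45, 2.07 and 1.94 against 4.20, 4.24 and 5.63 CPM (-1.12 ± 0.24; DESeq2 adjusted p = 0.0166; edgeR adjusted p = 0.108). Prdm1, a transcriptional repressor, fell in DESeq2 with 10.3, 11.5 and 8.84 against 16.3, 13.1 and 16.9 CPM (-0.60 ± 0.17; DESeq2 adjusted p = 0.0455; edgeR adjusted p = 0.127). Of the cell cycle targets, cyclin D1 (Ccnd1) had a log2 fold change of 0.36 ± 0.20 and Mycn of 0.01 ± 0.09, neither called by either tool. Left out 1 library at a time in DESeq2, Nkx6-2 kept its call only without knockout replicate 1 and Prdm1 only without knockout replicate 1 or non-targeted replicate 2, with adjusted p up to 0.234 and 0.319 otherwise. Without knockout replicate 1, edgeR called 8 of this list, beside 29.1% of all genes in that fit. Foxf1, Foxl1 and Foxc2 are listed at 0 and lie inside a longer gene model of their strand.

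**Figure D3:**
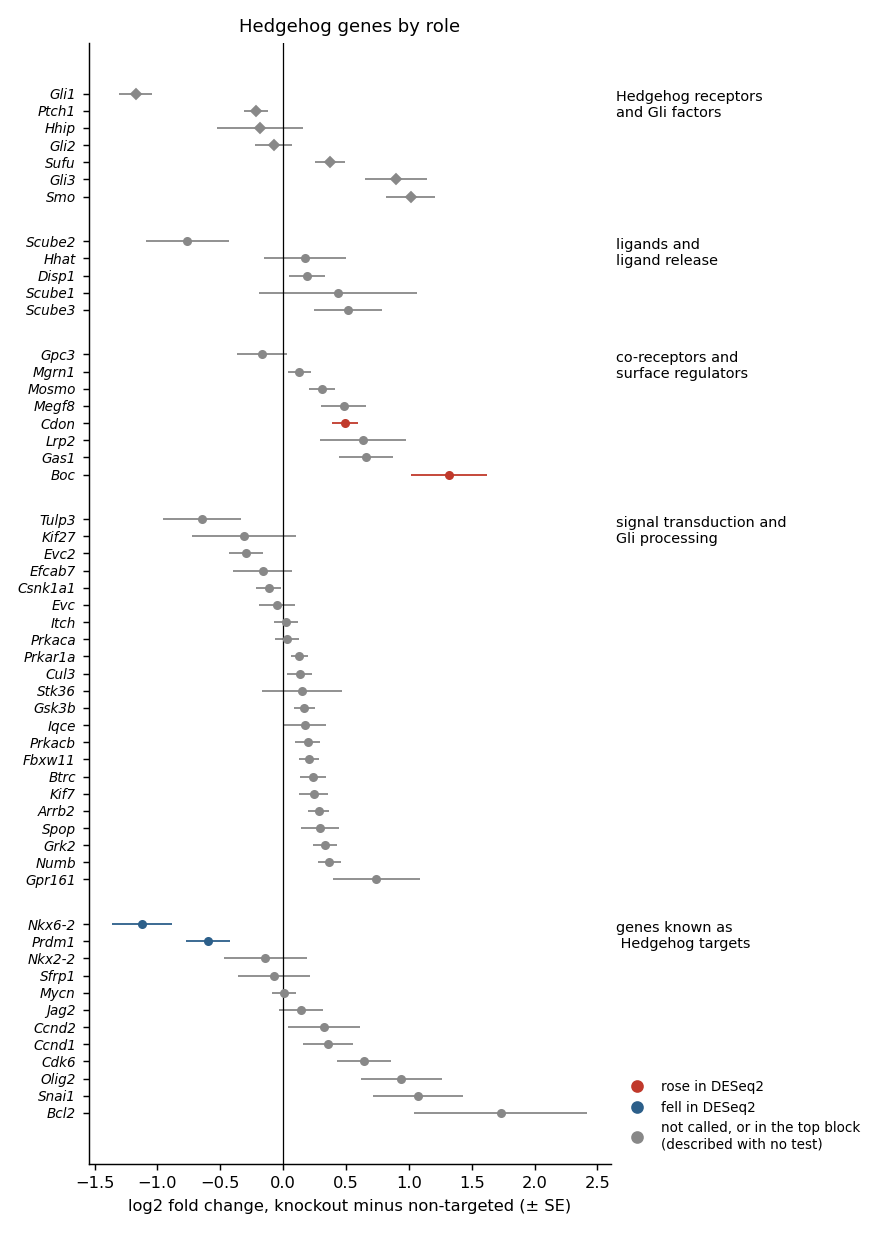
Points give the log2 fold change, knockout minus non-targeted (x axis), with its SE from edgeR for each tested gene (y axis), in blocks by role; colours mark DESeq2 calls outside the top block. Gli1 (-1.17) and Smo (1.02) lie at the ends of the top block, and Cdon and Boc rose in DESeq2.

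Mouse Hedgehog signalling runs through the primary cilium, and genes of its transport machinery were among the DESeq2 calls. Of 42 tested cilium genes, 6 fell and 1 rose in DESeq2, beside 3.15% and 5.5% of all genes, and 0 passed in edgeR. At an unadjusted p under 0.05 in edgeR, 10 were lower and 3 higher, beside 10.8% and 14.0% of all tested genes. The list median was -0.07. The 6 that fell were Wdr35, Ift140, Ift122, B9d1, Cc2d2a and Ift52, and the gene that rose was Ttc21b. Wdr35 had 57.0, 48.3 and 49.5 CPM in knockout replicates 1 to 3 against 78.4, 73.55 and 81.0 CPM (-0.59 ± 0.10; DESeq2 adjusted p = 0.000494; edgeR adjusted p = 0.106). Ift140 had 23.5, 21.4 and 17.4 CPM against a non-targeted mean of 32.1 ± 2.21 CPM (SD, n = 3), with no overlap (-0.63 ± 0.14; DESeq2 adjusted p = 0.00768; edgeR adjusted p = 0.109).

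Wdr35, Ift140, Ift122, Ttc21b and Wdr19 encode subunits of IFT-A, the complex that carries cargo from the tip of the cilium to its base and brings receptors into it; this grouping was made after their values were seen. Ift122 had 33.7, 19.2 and 18.6 against 42.0, 43.55 and 47.5 CPM (-0.89 ± 0.23; DESeq2 adjusted p = 0.00867; edgeR adjusted p = 0.116). Ttc21b went the other way, with 17.9, 26.3 and 31.7 against 9.60, 16.9 and 9.80 CPM (1.06 ± 0.29; DESeq2 adjusted p = 0.0128; edgeR adjusted p = 0.122). Wdr19 passed neither test (-0.20 ± 0.16; DESeq2 adjusted p = 0.590). B9d1, a subunit of the gate at the base of the cilium, had 12.8, 14.15 and 14.9 against 21.9, 20.3 and 19.0 CPM (-0.55 ± 0.13; DESeq2 adjusted p = 0.0189; edgeR adjusted p = 0.111). Wdr35 was called by DESeq2 in 5 of the 6 fits that leave out a library, and its call was lost without non-targeted replicate 3 (adjusted p = 0.0510). Ift122, B9d1, Cc2d2a and Ift52 were called only without knockout replicate 1, and their adjusted p was otherwise at most 0.154, 0.195, 0.211 and 0.335. Ift140 was called without knockout replicate 1 or non-targeted replicate 2 (otherwise at most 0.131), as was Ttc21b (otherwise at most 0.183). Without knockout replicate 1, edgeR called 14 genes of this list, beside 29.1% of all genes in that fit.

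**Figure D4:**
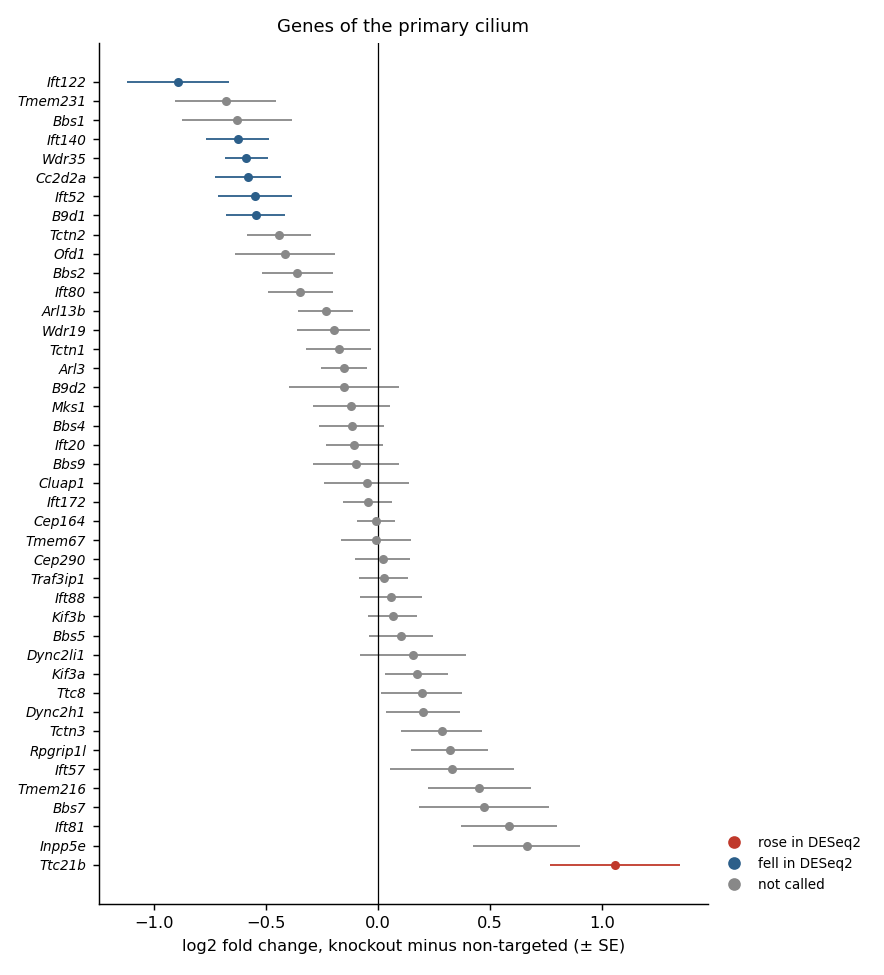
Points give the log2 fold change, knockout minus non-targeted (x axis), with its SE from edgeR for the 42 tested cilium genes (y axis); colours mark DESeq2 calls. Ift122 (-0.89), Ift140 (-0.63) and Wdr35 (-0.59) fell and Ttc21b (1.06) rose in DESeq2, with most genes near 0.

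The genes around each member were set beside these values. For each gene, the 10 tested genes on each side were compared with the mean of the non-targeted libraries in log2 CPM. Around Gli1 (chromosome 10, 127172426 to 127747335) their median was -0.14, -0.10 and -0.09 in knockout replicates 1 to 3, where Gli1 itself was at -1.12, -1.34 and -1.04. The tested genes next to it, Arhgap9 and R3hdm2, had log2 fold changes of -0.28 ± 0.32 and -0.21 ± 0.09. Gli1 lies 64.4 Mb from Tet1 on the same chromosome, and the 441 tested genes on its side of Tet1 had medians of -0.03, -0.03 and 0.01.

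Smo lies on chromosome 6 (29735503 to 29761365), where the median of its 20 neighbours was lower in knockout replicates 2 and 3. The medians were 0.07, -0.37 and -0.35 in the knockout replicates, and 14 of the 20 had a negative log2 fold change. The tested genes next to Smo, Tspan33 and Ahcyl2, had log2 fold changes of 0.42 ± 0.22 and 0.03 ± 0.12. Smo went against the median, at 0.74, 0.98 and 1.33. For Ift122, on the same chromosome, the neighbours moved with the gene. Their medians were -0.06, -0.83 and -0.84, and Ift122 was at -0.39, -1.20 and -1.24. Tulp3, a cargo adaptor of IFT-A that brings Gpr161 into the cilium and is named here after its values were seen, had 125, 51.3 and 59.3 CPM against 116 to 129 CPM. Its neighbours had medians of -0.13, -0.92 and -0.80, and Tulp3 was at 0.02, -1.26 and -1.05. The part of these stretches in the values of Ift122 and Tulp3 was not tested. Around Gli3 and Ptch1, which lie 47.8 Mb apart on chromosome 13, the medians were 0.05, -0.06 and 0.02, and 0.12, -0.16 and -0.21. Around Gli2 they were 0.05, 0.01 and -0.06, and around Sufu and Hhip they lay between -0.05 and 0.16. With 5 genes on each side, the median in knockout replicate 3 was -0.44 around Gli2 and -0.43 around Ptch1, and around Ift122 it was -0.29 in that clone. The tested genes next to Gli2, Tfcp2l1 and Inhbb, were lower in every knockout clone (-0.72 ± 0.32 and -1.23 ± 0.40). Those next to Gli3 went opposite ways. Inhba was higher in every knockout clone (1.25 ± 0.45) and AW209491 was lower in every knockout clone (-0.22 ± 0.11).

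**Figure D5:**
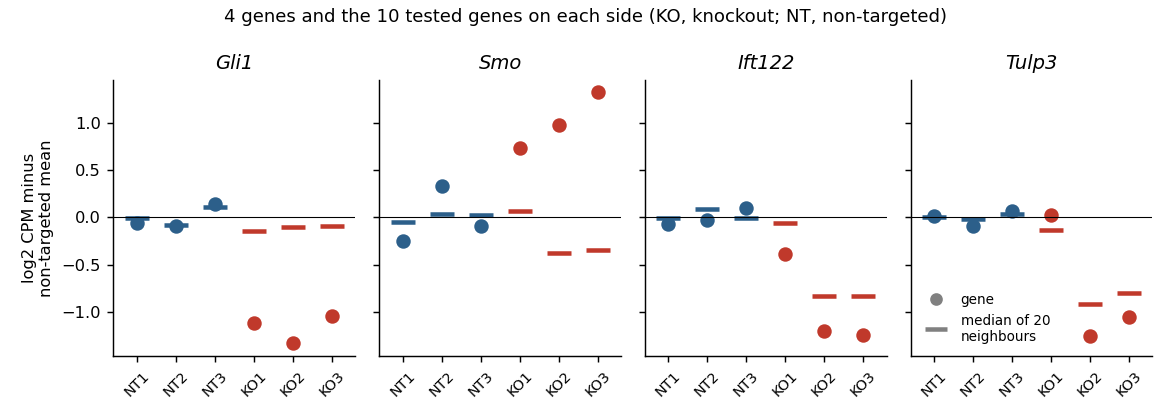
For 4 genes, circles give the gene and bars the median of the 10 tested genes on each side, as log2 CPM minus the non-targeted mean (y axis), in each library (x axis). Gli1 is at -1.04 to -1.34 in the knockout with a neighbour median of -0.14 to -0.09. In knockout replicates 2 and 3, Smo is high where the median of its neighbours is low, and Ift122 and Tulp3 are low with theirs.

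Over the 6 libraries, the log2 CPM of Gli1 had a Pearson correlation of -0.88 with Smo, -0.81 with Gli3, -0.79 with Sufu, 0.78 with Ptch1, 0.49 with Hhip and 0.17 with Gli2. The 6 points share the 2 groups that the members were picked on, and the values are a description. Among 12364 genes with a mean of at least 1 CPM and no predicted gene model name, the 5 whose pattern was most like that of Gli1 were Ppil1 (0.992), Ptov1 (0.990), Ap5z1 (0.989), Dgka (0.988) and Sec16a (0.988). Their falls were smaller than that of Gli1, with log2 fold changes of -0.24, -0.20, -0.64, -0.66 and -0.35, and 19 genes had a correlation above 0.98. Dgka lies on the chromosome of Gli1 (chromosome 10, 128720141 to 128744056), outside the stretch of neighbours described above.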

How the data were processed

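The deposited table holds raw read counts, whole numbers for each gene. Its header line gives the counter as featureCounts 1.6.2 with reverse-stranded assignment over whole gene bodies of GENCODE M15 (GRCm38.p5), and no option for multi-overlapping reads. HISAT2 2.1.0, featureCounts 1.5.3, DESeq2 1.18.1 and mm10 are listed in the submitters' processing notes. All 6 libraries carry the same sequencing batch label. The 7 members and all gene lists were chosen with earlier results of these data known.

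The counts were tested over all 14664 genes that passed edgeR's filterByExpr (minimum count 10, minimum total 15) with edgeR 4.0.16 (quasi-likelihood, TMM, group as the only term, Benjamini-Hochberg adjustment). DESeq2 1.42.0 and limma voom 3.58.1, in R 4.3.3, were alternatives. The common biological coefficient of variation was 0.188. An SE is the size of the log2 fold change divided by the square root of its F statistic. Exon lengths came from GENCODE M21 and promoters from RefSeq. Log2 CPM used a prior count of 2. The fits were tested on simulated data. Named genes are the members, Tet1, a fixed set of pathway and marker genes, up to 4 calls per direction and pathway list (where none was called, the 2 smallest p), the 5 genes most like Gli1, and genes next to a described member. Mosmo and Grk2 were matched by gene ID. A gene of the co-receptor list is not reported here and was left out of the counts of its list.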

Additional observations from a re-analysis of the deposited data

How the results depend on the processing

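Under the alternatives that kept all 6 libraries, the log2 fold changes of the 7 members moved by less than the spread between clones (1 SD). That bar is no test of fits without 1 library, since dropping 1 of 3 clones cannot move a group mean that far. In those fits the Gli1 value lay between -1.24 and -1.09, Smo between 0.84 and 1.20 and Gli3 between 0.69 and 1.11. Gli2 (-0.22 to 0.03) and Hhip (-0.44 to 0.08) crossed 0. Over all genes the edgeR count of 0 was 159 with no filter on low counts, 1232 in DESeq2, 1 in limma voom and 3 with the replicate block; left out 1 library at a time it was 0 to 4404, and in DESeq2 128 to 4106. Nothing in the labels ties a knockout clone to the non-targeted clone of the same replicate number. Same-numbered correlations of deviations from the group mean were 0.46, 0.11 and -0.02. Knockout replicates 1 and 2 correlated best with their own number, and knockout replicate 3 with non-targeted replicate 2 (0.46). With 3 clones per group, these values cannot decide whether the clones are paired. In DESeq2 the counts were 2 for co-receptors and for pathway genes other than the members, 2 for Hedgehog targets, 7 for the cilium (1 in edgeR with no filter), 12 for fibroblast, 2 for neural and 2 for mesendoderm markers, against 0 in edgeR. With 1 library left out, edgeR called 0 to 1 ligand genes, 0 to 6 co-receptors, 0 to 7 signal transduction genes, 0 to 8 targets, 0 to 14 cilium genes, 0 to 14 pathway genes other than the members, and 0 to 8 pluripotent, 0 to 22 fibroblast, 0 to 4 neural and 0 to 9 mesendoderm markers. DESeq2 called 0 to 1, 0 to 6, 0 to 7, 0 to 9, 0 to 13, 0 to 14, 0 to 7, 0 to 20, 0 to 4 and 0 to 5 of these lists in the same order. These DESeq2 fits were chosen after seeing the data. The upper ends of the list counts came from the fits without knockout replicate 1. Those fits called 29.1% of all genes in edgeR and 27.4% in DESeq2. The log2 fold change of Mycn, 0.01, was -0.0028 with no filter, -0.0004 in DESeq2, and -0.0522, -0.0182 and -0.0392 without knockout replicate 1, knockout replicate 2 and non-targeted replicate 2. It was up to 0.0914 without knockout replicate 3. The cause was not tested. By Spearman correlation 1 of the 5 genes most like Gli1 was among the 32 tied at 1. With 5 genes on each side the median log2 fold change of the neighbours moved from 0.05 to -0.05 for Gli2 and from -0.03 to -0.19 for Ptch1 (-0.13 with 20), and with the length of the whole gene body every member but Hhip changed rank in at least a single group.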
